A study of Danio rerio with 4 samples.

Results

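The 10 zebrafish genes described here encode proteins that hold epithelial cells together: the surface molecule epcam, the cadherin cdh1, the desmosomal plakins dspa and dspb, the armadillo proteins jupa, jupb and pkp3a, and the envelope plakins evpla, evplb and ppl. They were taken by gene symbol from the 32520 distinct gene IDs of the deposited table, 1 ID for each symbol. The data came from RNA sequencing of whole Danio rerio larvae, with 2 libraries from larvae exposed to PM2.5 and 2 libraries from untreated control larvae. PM2.5 is the fine fraction of airborne particles, and the exposed larvae received 12000000 smog particles between 72 and 120 hours after fertilization. Controls were left untreated, and RNA came from 5 to 7 whole larvae in each group. The labels give no genotype or strain, and they do not state whether replicate libraries stem from different clutches or exposures. All p-values therefore measure only how the 4 libraries vary, and that variation may be technical.

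In an epithelium, E-cadherin (the product of cdh1) joins neighbouring cells at adherens junctions and is tied to actin through catenins. Desmosomes are the second kind of anchoring junction: desmosomal cadherins bind plakoglobin (jup) and plakophilins, which bind desmoplakin (dsp), which holds the keratin filaments. Envoplakin (evpl) and periplakin (ppl) are relatives of desmoplakin that, in mammals, are early parts of the cornified envelope, and in zebrafish they are found in the surface skin layer, the periderm. EpCAM is a surface protein of epithelial cells with roles in adhesion, in zebrafish in the early enveloping layer and the lateral line.

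Values are in TPM, a gene's reads per unit of its length as a share of a library's total, so levels of different genes can be set side by side. Read numbers worked out from the steps between TPM values put the depth at 23563056 and 15137088 reads in the PM2.5 libraries and 18936644 and 14723034 reads in the controls. Behind the 40 member values stood 197 to 4259 reads, for which counting alone gives a standard error of 7.12% and 1.53%. These read numbers are known only up to a factor shared by all libraries of a gene, and such intervals cover counting error only.

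With exposure, 4 of the 10 genes rose and none fell. The cadherin gene cdh1 was 2.28 times, evpla 1.71 times, epcam 1.67 times and jupa 1.35 times its control mean. The other 6 genes, among them both desmoplakin genes and periplakin, did not pass the test. Summed over the 10 genes, the level was 506 and 498 TPM in PM2.5 larvae and 345 and 350 TPM in controls, a ratio of 1.44. Without epcam the ratio was 1.32, and over the 6 genes that did not pass it was 1.15. The groups were compared with limma on log2(TPM + 1) over the 20874 genes that averaged 1 TPM or more. A gene was counted as changed at a Benjamini-Hochberg adjusted p under 0.05. In simulated data with 200 changed genes, this fit called 3.24% of log2 changes of 0.5 and 31.1% of log2 changes of 1. In the real data it called 2313 genes. The adjustment is less strict where more genes pass, so these shares may be too low for the real data. Genes that did not pass, here and in the lists below, may still have changed.

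Among all tested genes 8.46% were higher and 2.62% were lower by that rule. At an unadjusted p under 0.05 there were 5 members, all of them higher, where 19.3% of all tested genes were higher and 7.83% lower. The fit to read numbers with limma voom called 6 members higher and 0 lower, where it called 12.2% of its genes higher and 5.67% lower. The median log2 fold change of the 10 members was 0.36, against 0.07 over all tested genes. Both PM2.5 libraries stood above both controls in 9 of the 10 genes, a pattern shown by 36.6% of all tested genes. The members were chosen with earlier results of these data known, so these comparisons with all tested genes are a description only. The share of calls that were higher depended on scaling, at 76.4% in the deposited TPM, 61.2% once rescaled by trimmed means (TMM-type) and 57.9% once quantile normalized. The last of these moved the median of all tested genes by -0.11. In whole-larva RNA, more cells of a type and more RNA per cell cannot be told apart.

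**Figure D1:**
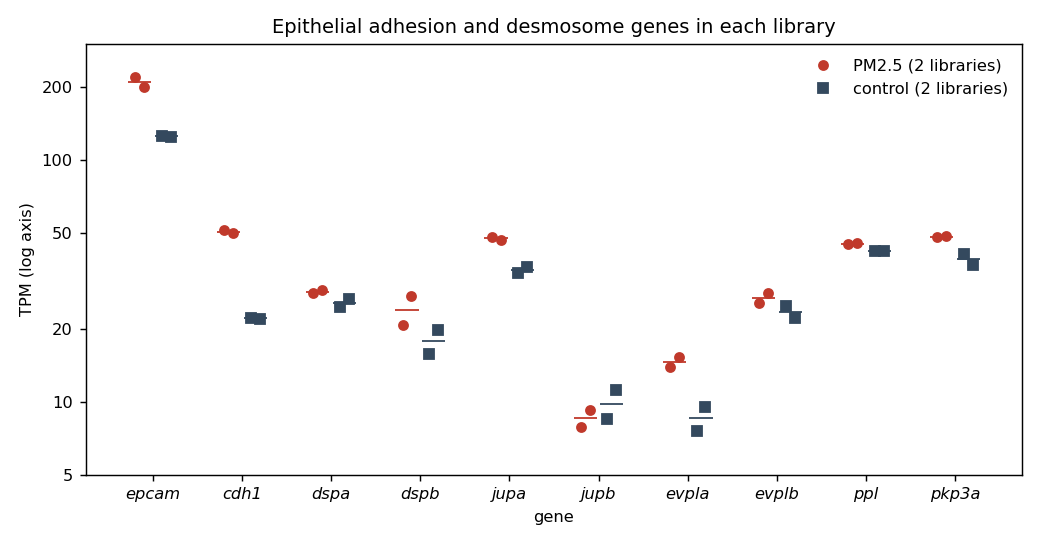
TPM (log axis) of the 10 genes in each of the 4 libraries, with PM2.5 libraries as red circles, controls as dark squares and a short line at each group's mean. Relative to their levels the groups are farthest apart for cdh1, at 51.0 and 49.7 TPM in PM2.5 larvae and 22.2 and 22.0 TPM in controls, and they overlap only for jupb.

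The E-cadherin gene cdh1 (ENSDARG00000102750, chromosome 7) was at 51.0 and 49.7 TPM in PM2.5 larvae and at 22.2 and 22.0 TPM in controls. The distance between the groups was many times that between the libraries of a group. The mean was 50.4 ± 0.964 TPM in PM2.5 larvae and 22.1 ± 0.163 TPM in controls (SD, n = 2 each). On the log2(TPM + 1) scale the difference was 1.15 (SE 0.09, 95% confidence interval 0.94 to 1.36, adjusted p = 0.0010). The value rested on 1137 and 701 reads in the exposed libraries and on 399 and 300 reads in the controls. The controls lay closer together than their counting errors of 5.01% and 5.77%, so their SD may understate their variation. Its call was kept in all 4 fits without 1 library and under each of the 8 other settings tried. Ranked by mean TPM among the 32520 IDs, cdh1 stood at place 2118 in PM2.5 larvae and at place 4681 in controls.

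The gene epcam (ENSDARG00000040534, chromosome 13) had the highest level of the 10, with 218 and 199 TPM in PM2.5 larvae and 125 and 124 TPM in controls. The exposed libraries differed from each other more than the controls did, yet both stood far above them. The log2 fold change was 0.74 (SE 0.07, interval 0.58 to 0.89, adjusted p = 0.0017). The call was kept when any 1 library was left out (adjusted p between 0.032 and 0.049) and was lost without an intensity trend in the variance model (0.057). Of the summed TPM of the 10 genes, epcam made up 43.2% and 40.0% in PM2.5 larvae and 36.2% and 35.5% in controls.

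The ratios of cdh1 to the catenin genes compared here and to another cadherin gene, cdh2, were also higher in exposed larvae. The level of cdh1 over that of ctnna1, which encodes the alpha-catenin that links cadherin complexes to actin, was 1.33 and 1.31 in PM2.5 larvae and 0.774 and 0.779 in controls. Over ctnnb1, a beta-catenin gene, the ratio was 0.215 and 0.219 in PM2.5 larvae and 0.0970 and 0.0882 in controls. Over ctnnd1, another catenin gene, it was 1.59 and 1.42 in PM2.5 larvae and 0.810 and 0.756 in controls. Over cdh2, the neural cadherin gene, it was 0.601 and 0.632 in PM2.5 larvae and 0.269 and 0.248 in controls. These ratios share the cdh1 values and were not tested.

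Desmoplakin is present in zebrafish as a pair of gene copies. The copy dspa (ENSDARG00000022309, chromosome 2) was at 28.1 and 28.9 TPM in PM2.5 larvae and at 24.5 and 26.5 TPM in controls. The copy dspb (ENSDARG00000076673, chromosome 20) was at 20.8 and 27.3 TPM in PM2.5 larvae and at 15.8 and 19.8 TPM in controls. In dspb the libraries of each group lay well apart, and the lower exposed library was close to the higher control. Neither copy passed: the log2 fold change was 0.15 for dspa (interval -0.08 to 0.39, adjusted p = 0.364) and 0.41 for dspb (interval -0.01 to 0.82, adjusted p = 0.192). The fit to read numbers with limma voom called dspb higher (0.41, adjusted p = 0.039). After TMM-type rescaling (0.32, adjusted p = 0.233) and quantile normalization (0.31, 0.241) dspb did not pass. Both intervals leave room for no change and for a rise.

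Plakoglobin, the armadillo protein shared by desmosomes and adherens junctions, also has a pair of gene copies. The copy jupa (ENSDARG00000070787, chromosome 11) was at 47.9 and 46.6 TPM in PM2.5 larvae and at 33.9 and 35.9 TPM in controls. The groups did not overlap, and the log2 fold change was 0.43 (SE 0.08, interval 0.23 to 0.63, adjusted p = 0.027). Each fit with a library left out lost that call, while the log2 fold change stayed between 0.39 and 0.47. Such fits also called fewer of all tested genes. The call was lost as well under TMM-type rescaling (adjusted p = 0.058), quantile normalization (0.058) and without an intensity trend (0.123). The copy jupb (ENSDARG00000059067, chromosome 19) was at 7.85 and 9.24 TPM in PM2.5 larvae and at 8.48 and 11.2 TPM in controls. Its groups overlapped, with a log2 fold change of -0.18 (interval -0.62 to 0.26, adjusted p = 0.587), and it rested on only 197 to 264 reads in each library.

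The plakophilin gene pkp3a (ENSDARG00000051861, chromosome 25), whose product recruits desmoplakin to the junction, was at 47.7 and 48.4 TPM in PM2.5 larvae and at 40.9 and 36.7 TPM in controls. The exposed libraries were nearly level and lay above both controls. The log2 fold change of 0.30 (interval 0.09 to 0.52) did not pass (adjusted p = 0.087), although limma voom on read numbers called it higher (0.31, adjusted p = 0.021). After TMM-type rescaling (0.22, adjusted p = 0.240) and quantile normalization (0.18, 0.275) pkp3a was smaller in change and did not pass. Together the 3 armadillo genes summed to 103 and 104 TPM in PM2.5 larvae and 83.3 and 83.7 TPM in controls.

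**Figure D2:**
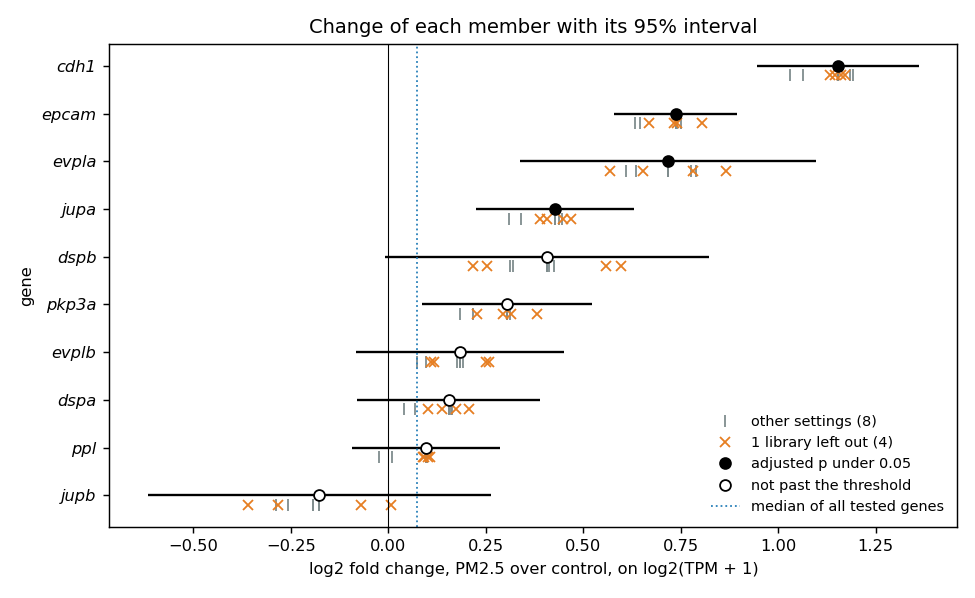
Log2 fold change of each gene, PM2.5 over control, on the log2(TPM + 1) scale, with circles for the values and lines for 95% intervals. Marks under each line give the values with 1 library left out and under the 8 other settings, and the dotted line is the median of all tested genes (0.07). The 4 filled circles, cdh1, epcam, evpla and jupa, passed the threshold.

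Among the envelope plakins, evpla (ENSDARG00000019808, chromosome 6) rose. It was at 14.0 and 15.4 TPM in PM2.5 larvae and at 7.58 and 9.56 TPM in controls, with 671 to 1602 reads in each library. Both exposed libraries stood above both controls, and the log2 fold change was 0.72 (SE 0.16, interval 0.34 to 1.096, adjusted p = 0.037). The call was lost when any 1 library was left out, with log2 fold changes between 0.57 and 0.87. It was also lost with no minimum on TPM (adjusted p = 0.067) and without an intensity trend (0.096). The copy evplb (ENSDARG00000103459, on the unplaced scaffold KN149912.1) was at 25.6 and 28.1 TPM in PM2.5 larvae and at 24.8 and 22.2 TPM in controls. Its log2 fold change was 0.18 (interval -0.08 to 0.45, adjusted p = 0.340).

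The periplakin gene ppl (ENSDARG00000101043, chromosome 3) was at 44.6 and 45.2 TPM in PM2.5 larvae and at 42.1 and 41.8 TPM in controls. The groups did not overlap but lay close together. The log2 fold change was 0.10 (interval -0.09 to 0.29, adjusted p = 0.479), and it turned to -0.023 after quantile normalization. The interval does not reach the log2 fold change of evpla, 0.72, which has an interval of 0.34 to 1.096. The difference between the 2 genes was not tested. The level of evpla over that of ppl was 0.313 and 0.339 in PM2.5 larvae and 0.180 and 0.229 in controls, while that of evplb over ppl was 0.573 and 0.621 in PM2.5 larvae and 0.588 and 0.532 in controls.

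The copies of a pair held unequal shares of their summed level. Of the plakoglobin pair, jupa held 85.9% and 83.5% in PM2.5 larvae and 80.0% and 76.2% in controls. Of the envoplakin pair, evpla held 35.3% and 35.3% in PM2.5 larvae and 23.5% and 30.1% in controls. Of the desmoplakin pair, dspa held 57.5% and 51.4% in PM2.5 larvae and 60.8% and 57.2% in controls, and here the groups overlapped. The differences between copies were not tested. How reads that match both copies were counted is not given in the sources used here, so a copy's level may include reads of the other.

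**Figure D3:**
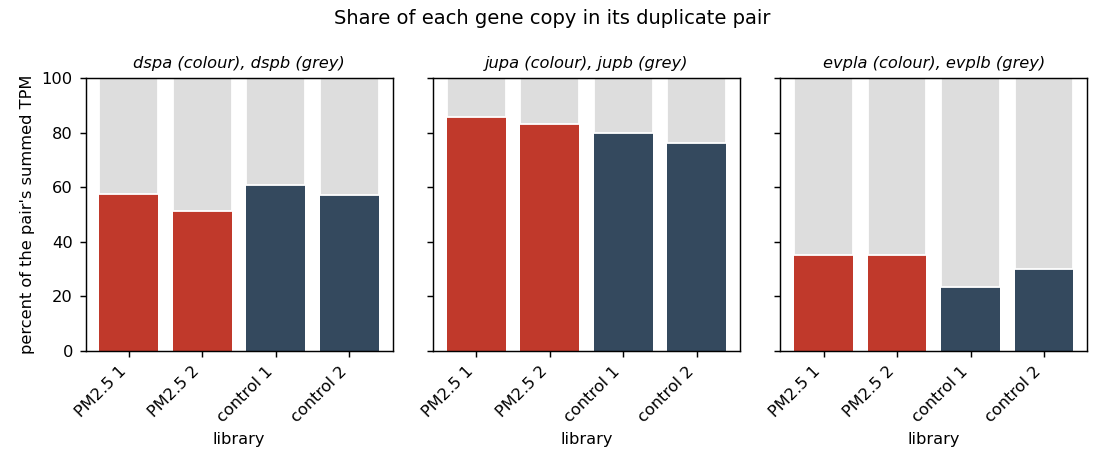
Share of the summed TPM of each duplicate pair held by dspa, jupa and evpla (coloured) and by the other copy (grey), in percent, for each PM2.5 and control library. The coloured share of evpla is 35.3% and 35.3% in PM2.5 larvae and 23.5% and 30.1% in controls.

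Ordered by mean level, the PM2.5 larvae had epcam (209 TPM), cdh1 (50.4), pkp3a (48.1), jupa (47.3), ppl (44.9), dspa (28.5), evplb (26.8), dspb (24.0), evpla (14.7) and jupb (8.54 TPM). In the controls the order was epcam (125 TPM), ppl (41.9), pkp3a (38.8), jupa (34.9), dspa (25.5), evplb (23.5), cdh1 (22.1), dspb (17.8), jupb (9.84) and evpla (8.57 TPM). Neighbours whose libraries overlapped were pkp3a with jupa and evplb with dspb in PM2.5 larvae, and dspa with evplb and jupb with evpla in controls. In this order cdh1 was the second gene in exposed larvae and the seventh in controls.

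The genes most like the members over the 4 libraries were lgmn, ttc1, adka, snx1a and shisa9a, leaving out names that hold a colon or a point. Likeness was the largest difference, over the 4 libraries, from the median deviation of the 10 members on the log2(TPM + 1) scale. It lay between 0.026 and 0.031 for these 5 genes, and 3.98% of the other tested genes came within 0.1. No single member came within 0.1, since the members differed among themselves more than that.

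Other junction genes were read from lists drawn up with earlier results of these data known. Beside all list counts stand the shares over all tested genes, 8.46% higher and 2.62% lower. With limma voom these shares were 12.2% and 5.67%. Of 8 other desmosome genes, only perp rose, a gene for a small membrane protein of desmosomes, and none fell (median log2 fold change 0.05). Its level was 112 and 112 TPM in PM2.5 larvae and 80.0 and 86.4 TPM in controls (0.43, adjusted p = 0.014), and the call was lost when any 1 library was left out (0.074 to 0.119). The desmosomal cadherin gene dsg2.1 (0.21, adjusted p = 0.233) and the plakophilin genes pkp2 (0.44, 0.257) and pkp1b (-0.44, 0.217) did not pass. Of 11 genes of other plakins and the hemidesmosome, which fixes basal cells to the basement membrane, none rose or fell (median -0.16), and after quantile normalization the integrin gene itga6b passed as lower (-0.38, adjusted p = 0.034). The lowest adjusted p there were those of the collagen gene col17a1b (0.48, 0.099) and of itga6b (-0.25, 0.104). Limma voom on read numbers called 2 of these genes higher and 2 lower.

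Among 16 adherens junction genes, 2 rose and none fell, with a median of 0.24, where 8.46% of all tested genes rose and 2.62% fell. These were ctnna1, at 38.3 and 38.0 TPM in PM2.5 larvae and 28.7 and 28.2 TPM in controls (0.41, adjusted p = 0.033), and the beta-catenin gene ctnnb2 (0.33, adjusted p = 0.041). Both calls were lost when any 1 library was left out (adjusted p between 0.113 and 0.229) and after both rescalings (0.081 to 0.161). The nectin gene nectin4a (0.54, adjusted p = 0.111) and the focal adhesion gene zyx (0.33, 0.133) did not pass. Of 7 other cadherin genes none rose or fell (median -0.023), and those with the lowest p were the intestinal cadherin gene cdh17 (0.31, adjusted p = 0.075) and cdh4 (-0.34, 0.179). Limma voom called 1 other cadherin gene higher and 1 lower.

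Among the genes of tight junctions, the seals between epithelial cells, several rose, where 8.46% of all tested genes rose and 2.62% fell. Of 16 tested, 6 rose and none fell in the deposited TPM, where the median was 0.58, and 1 passed as lower after either rescaling. Limma voom called 9 of them higher and 1 lower. The occludin genes, which encode membrane proteins of the tight junction strand, had the largest changes of the list: oclna was at 60.7 and 64.2 TPM in PM2.5 larvae and at 15.5 and 14.9 TPM in controls (1.97, adjusted p = 0.00018), and oclnb at 43.2 and 38.8 TPM in PM2.5 larvae and at 10.15 and 8.94 TPM in controls (1.99, adjusted p = 0.00046). The scaffold gene tjp3 (1.27, adjusted p = 0.0031) and f11r.1, a junctional adhesion molecule gene (1.36, 0.0024), also rose. The occludin calls were kept when any 1 library was left out, that of tjp3 was lost each time (0.058 to 0.069) and that of f11r.1 in 2 of the 4 fits (highest adjusted p 0.075).

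Matriptase is a membrane protease of epithelia held in check by Kunitz inhibitors, and in mouse and zebrafish its balance bears on epithelial integrity. Of 7 tested genes of this system 5 rose and none fell (median 0.87), against 8.46% and 2.62% of all tested genes. The inhibitor gene spint2 was at 194 and 175 TPM in PM2.5 larvae and at 58.5 and 56.3 TPM in controls (1.67, adjusted p = 0.00015). The protease genes st14a (0.87, adjusted p = 0.0075) and st14b (1.28, 0.0093) and the inhibitor gene spint1a (0.76, 0.0038) also rose. Only spint2 of these 4 kept its call when any 1 library was left out, and the others lost it each time (adjusted p between 0.055 and 0.114).

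The regulators of epithelial identity had the highest median of the 9 lists of related genes. The lists were drawn up with earlier results of these data known, so this order is a description only. Of 16 tested, 10 rose and none fell, and the median was 0.91. Over all tested genes 8.46% rose, 2.62% fell and the median was 0.07. The Ets-family gene elf3 was at 100 and 91.8 TPM in PM2.5 larvae and at 10.6 and 11.1 TPM in controls (3.03, adjusted p = 4.6e-05). Its relative ehf was at 11.3 and 10.8 TPM in PM2.5 larvae and at 1.20 and 0.863 TPM in controls (2.57, adjusted p = 0.0012). The grainyhead-like genes encode epithelial transcription factors, of which mouse Grhl2 acts on the E-cadherin gene: grhl3 was at 23.9 and 26.4 TPM in PM2.5 larvae and at 4.66 and 3.91 TPM in controls (2.31, adjusted p = 0.00054), and grhl1 at 22.5 and 27.5 TPM in PM2.5 larvae and at 5.46 and 4.67 TPM in controls (2.09, 0.0010). All 4 kept their calls when any 1 library was left out. As for the zebrafish copies of Grhl2, grhl2a rose (1.31, adjusted p = 0.0038) and grhl2b did not pass (0.41, adjusted p = 0.293). Of 10 genes of mesenchymal cells and their regulators none rose or fell, by limma or by limma voom (median 0.06). Those with the lowest p were twist1b (0.23, adjusted p = 0.394) and zeb1b (0.16, 0.437).

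Among 12 genes of the cell envelope and its cross-linking enzymes, 4 rose and 1 fell (median 0.46), against 8.46% and 2.62% of all tested genes. The sciellin gene scel, an envelope precursor gene in mammals, was at 47.2 and 47.6 TPM in PM2.5 larvae and at 21.8 and 23.0 TPM in controls (1.05, adjusted p = 0.0015). The gene s100a10b (0.62, adjusted p = 0.0024) and the transglutaminase gene tgm1 (1.23, 0.011) rose. Another transglutaminase gene, tgm2a, fell to 15.7 and 15.0 TPM in PM2.5 larvae, against 34.8 and 33.4 TPM in controls (-1.102, adjusted p = 0.0018). The related gene tgm2b rose, at 41.1 and 40.6 TPM in PM2.5 larvae and 26.2 and 29.0 TPM in controls (0.55, adjusted p = 0.018). When 1 library was left out, scel kept its call in all 4 fits, tgm2a in 3 (highest adjusted p 0.058), s100a10b in 2 (0.056) and tgm1 in none (0.070 to 0.115). In these fits fewer of the listed genes rose, and fewer of all tested genes did too. Without an intensity trend 6 epithelial regulators, 4 matriptase genes, 4 tight junction genes and 1 envelope gene rose. Over all 20874 tested genes that fit called 665 higher, against 1766 in the main fit.

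Markers of the skin layers that carry these junctions did not move as 1 group. Of 9 periderm markers 2 rose and 5 fell, and their summed level was 4855 and 4936 TPM in PM2.5 larvae and 10526 and 10401 TPM in controls. Most of that sum was the keratin genes krt4, cyt1, cyt1l, krt17 and krt92. Of the markers that are not keratin genes, icn rose (608 and 595 TPM in PM2.5 larvae, 463 and 499 TPM in controls). The gene icn2 fell (216 and 206 TPM in PM2.5 larvae, 300 and 308 TPM in controls), and anxa1c did not pass. The keratin gene krt4 was at 1950 and 1978 TPM in PM2.5 larvae and at 5025 and 4904 TPM in controls, while the claudin gene cldne was at 214 and 201 TPM in PM2.5 larvae and at 51.9 and 53.4 TPM in controls. Of 7 basal epidermis markers 2 rose and 1 fell, with a sum of 1018 and 996 TPM in PM2.5 larvae and 2398 and 2333 TPM in controls. Most of that sum was the keratin gene krtt1c19e, at 774 and 748 TPM in PM2.5 larvae and 2197 and 2120 TPM in controls, whereas the basal cell regulator gene tp63 was at 20.7 and 19.6 TPM in PM2.5 larvae and 13.1 and 12.8 TPM in controls. Of 5 markers of ionocytes, the ion-transporting cells of the skin, 3 rose and none fell, with a sum of 61.3 and 55.4 TPM in PM2.5 larvae and 30.6 and 31.0 TPM in controls. No marker of these 3 lists was at 0 in all libraries. Over all tested genes 8.46% rose and 2.62% fell. The part of cell numbers of these types in the member changes was not tested.

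**Figure D4:**
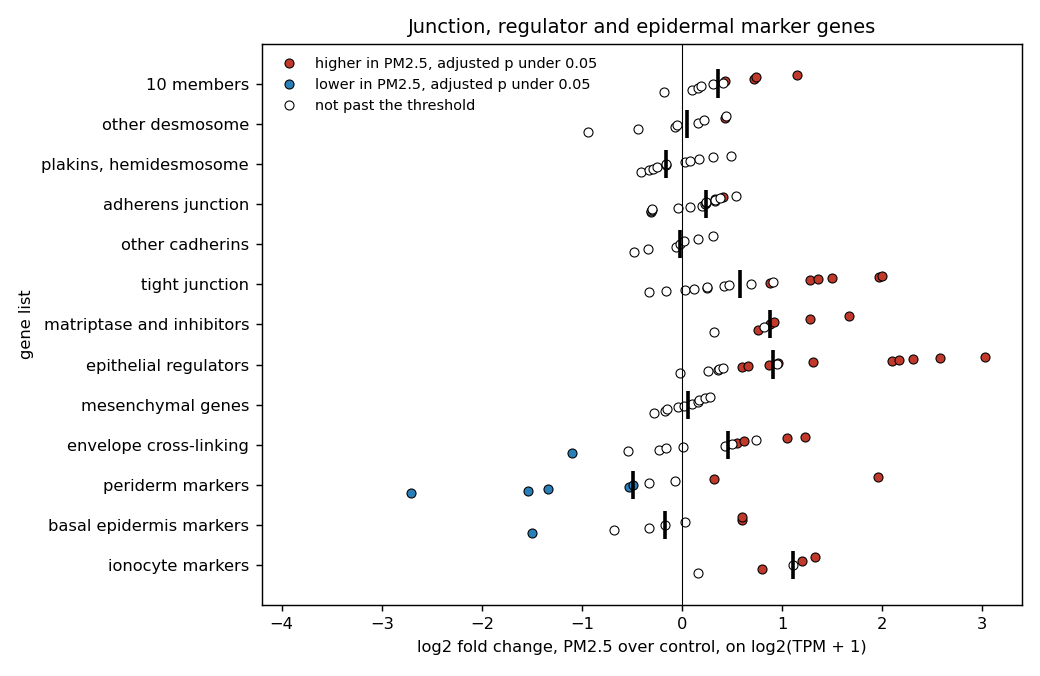
Log2 fold change of each tested gene, PM2.5 over control, on the log2(TPM + 1) scale, in the 10 members, 9 lists of related genes and 3 lists of skin markers, with a bar at each list's median. Red points are higher and blue points lower in PM2.5 at an adjusted p under 0.05. The median is 0.36 for the members, 0.91 for the epithelial regulators and -0.49 for the periderm markers.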

How the data were processed

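RNA of whole larvae was sequenced in paired-end reads of 150 bases, per the labels' protocols, from RNA with an integrity number above 7.8. The labels name different extraction kits and sequencers in different fields. Per the submitters' processing notes, cutadapt 1.18, STAR 2.6.1c and the build GRCz11 were used. Which program counted reads, with which annotation, gene lengths and strand setting, is not given in the sources used here. Values are TPM in 1 table that the authors deposited, and 405 of its 32925 rows repeated an ID with the same values and were used once. Libraries were placed in their groups by title.

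Testing used limma 3.58.1 (R 4.3.3) on log2(TPM + 1) for genes that averaged 1 TPM or more (group as the only term, intensity trend, two-sided, threshold 0.05, 2 residual degrees of freedom and 4.15 from the other genes). The fold change on this scale understates the change of low genes. TPM is a share, so a rise of some genes lowers others. TMM-type factors were unweighted means of log ratios with 30% of ratios and 5% of levels trimmed at each end.

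Read numbers were the smallest whole numbers that fitted a gene's TPM in all libraries, within 0.001 reads plus 1e-08 of the number. They were found for 25329 of 25331 genes above 0 in at least 2 libraries, and were used for depth and for a limma voom fit added after seeing the data. The read numbers, the limma fit and the voom fit were each checked on simulated data.

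The members and gene lists were chosen with earlier results of these data known. Named genes are all members, the 4 lowest p-values of a list that holds a called gene or the 2 lowest of any other, and the 5 genes nearest to the members. The cell type markers shown, and ctnnb1, ctnnd1 and cdh2 in the ratios to cdh1, are named as well and follow no such rule. The genes grhl2a, grhl2b and tgm2b are given beside related genes, without their values under the alternatives. Of 165 list entries 161 matched a symbol. The alternatives are another pseudocount (0.1 TPM), other minimums (5 TPM, none), 2 rescalings, no trend, a replicate block and leaving out each library, where the lone library is taken to vary like the others.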

Additional observations from a re-analysis of the deposited data

How the results depend on the processing

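Over 12 alternatives, cdh1 stayed past the threshold in all 12, epcam in 11, evpla in 6 and jupa in 5. Of 120 member values under an alternative, 102 kept their direction and side of the threshold, 14 lost a call, 2 gained one and 2 turned: jupb to 0.0062 without control replicate 2 (from -0.36 to 0.0062 with 1 library left out) and ppl to -0.023 after quantile normalization. The number of members higher was 4 as reported, 1 without an intensity trend and 6 with limma voom on read numbers. It was 3 under TMM-type rescaling, quantile normalization and no minimum on TPM, and under 4 in each fit that left out 1 library. The number of members lower was 0 throughout. Over all tested genes 2313 passed as reported, 770 without an intensity trend, 3714 with voom and 368 to 489 with 1 library left out. With the replicate number as a block, 2853 genes and the same 4 members passed. The labels do not say that a number pairs libraries, and the deviations of same-numbered libraries correlated at 0.065 across genes. For the genes named by p-value from the lists of related genes there were 358 values under an alternative. Of these 305 kept direction and side, 47 lost a call, 6 gained one and 0 turned. Counting alone gives a standard error of 1.53% to 7.12% of a member's level, and the control libraries of cdh1, at 22.2 and 22.0 TPM, lay closer together than their counting errors of 5.01% and 5.77%.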

Other observations

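Markers of other cell types of the whole larva were also read, where 8.46% of all tested genes rose and 2.62% fell. Of 4 tested cardiomyocyte markers, cells that carry desmosomes as well, none passed, and the list summed to 56.0 and 62.7 TPM in PM2.5 larvae and 50.6 and 46.5 TPM in controls. Of 5 enterocyte markers 1 rose and 1 fell, with a sum of 1133 and 1224 TPM in PM2.5 larvae and 1110 and 1062 TPM in controls. Of 4 tested lateral line markers 1 rose and 1 fell. The claudin gene cldnb rose (333 and 293 TPM in PM2.5 larvae, 149 and 125 TPM in controls). The gene pvalb8 fell (201 and 214 TPM in PM2.5 larvae, 248 and 243 TPM in controls). The list summed to 541 and 517 TPM in PM2.5 larvae and 404 and 376 TPM in controls, and the higher sum was that of cldnb.

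All 5 skeletal muscle markers fell, with a sum of 29527 and 28008 TPM in PM2.5 larvae and 34615 and 33771 TPM in controls. Of 4 macrophage markers none passed (22.4 and 23.9 TPM in PM2.5 larvae, 16.7 and 18.7 TPM in controls). Among 4 genes listed for neutrophils 2 rose and 1 fell (91.8 and 103 TPM in PM2.5 larvae, 117 and 123 TPM in controls). The lower sum was that of cpa5, singled out here after its values were seen, at 60.2 and 67.5 TPM in PM2.5 larvae and 100.4 and 102.4 TPM in controls, while ncf1 and mpx rose and the mean of lyz was 10.7 TPM in PM2.5 larvae and 8.98 TPM in controls. Of 4 hepatocyte markers 2 fell (4006 and 4097 TPM in PM2.5 larvae, 4730 and 4491 TPM in controls), and of 5 neuron markers none passed (1293 and 1319 TPM in PM2.5 larvae, 1323 and 1380 TPM in controls).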
